A study of Mus musculus with 6 samples.

Results

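The Wnt ligands, their Frizzled and ROR receptors, the LRP co-receptors, the secreted antagonists and 3 intracellular effectors were examined in adult microglia of Mir137 knockout and wild-type mice. Members were all rows of the deposited count table whose symbol begins with Wnt, Fzd, Dkk or Sfrp followed by a digit, together with Lrp5, Lrp6, Axin2, Lef1, Tcf7l2, Wif1, Ror1 and Ror2. This gave 45 genes of 24411 in the table: 19 ligands, 10 Frizzled receptors, 2 ROR receptors, 2 LRP co-receptors, 9 antagonists, 2 transcription factors and the feedback inhibitor Axin2. RNA had been sequenced from primary brain microglia of C57BL/6J mice aged 8 weeks, in 3 libraries labelled gKO, from Mir137 germline knockout mice, and 3 labelled gWT, from Mir137 wild-type mice. The knockout is germline, so it is not confined to microglia, and the level of the microRNA was not measured here. The design text mentions 4 mice without tying them to libraries, so the p-values reflect variation among libraries that may be only technical. The fits used genotype alone and not sex. Over all tested genes, the X-inactivation gene Xist had the smallest edgeR p between gKO and gWT. Whether the groups differed in sex was not tested, and such a difference could not be told apart from genotype.

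Wnts are secreted, lipid-modified proteins that bind a Frizzled receptor on the receiving cell. With the co-receptor LRP5 or LRP6, this halts the complex that destroys beta-catenin, which then enters the nucleus and switches on genes through LEF1 and TCF factors. Axin2 is one of these target genes and feeds back to restore the destruction complex. ROR1 and ROR2 carry signals of WNT5A that do not use beta-catenin, DKK proteins mostly act on the LRP co-receptors, and SFRP and WIF1 proteins bind the ligands. In the brain, beta-catenin signalling is best known for building and keeping the blood-brain barrier in endothelial cells.

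In gKO libraries, the receptor gene Fzd1 fell 4.50-fold, and it was the single member called at an adjusted p under 0.05. The antagonist Dkk2, the transcription factor Lef1, the receptor Fzd6 and the ligand Wnt16 lay lower in every gKO library than in any gWT library. They did not pass the test with all 6 libraries. Such separation was found in 14 of the 28 tested members, beside 11.3% of all tested genes. Wnt16 passed the filter on low counts through the gWT libraries alone, so it could only be lower in gKO. The most abundant members, Lrp5, Lrp6 and Fzd7, were not called, and 0 members were called higher. The summed level of microglial markers overlapped between the groups, whereas markers of fibroblasts, mural cells and endothelium stood at a lower summed level in gKO, as described below.

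The 6 libraries held 14603884 to 17652976 counts. A rounded count above 0 was found for 13831 to 14083 genes in the gKO libraries and for 15011 to 15266 genes in the gWT libraries. One library, gKO replicate 3, was an exception, at 91.5 on the first principal component (39.0% of the variance), against -37.7 to -3.45 in the other 5. Across genes, which are not independent replicates, this library read lower the longer the transcript (Spearman rho of its deviation with length -0.54), where rho was -0.03 to 0.31 for the rest. Where leaving it out changed a call or the sign of a fold change among the genes and lists described below, that value is given as well. The calls also rested on the other libraries. Without gKO replicate 1 or 2, or without any 1 gWT library, edgeR called 0 members. In these fits 6 to 14 members were lower and 0 or 1 higher at an unadjusted p under 0.05. The loss was not particular to the members: the same fits called 0 or 1 of all tested genes lower and 0 to 4 higher. Of 13741 to 13822 genes tested in them, 729 to 1741 had an unadjusted p under 0.05, lower and higher together.

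Of the 45 members, 8 had a count of 0 in every library: the ligands Wnt1, Wnt2, Wnt3a, Wnt8a, Wnt9b and Wnt10b and the antagonists Dkk1 and Dkk4. A further 9 had some counts but failed the filter on low counts, and 28 were tested. Among the tested members, Wnt16 and Fzd9 had 0 gKO libraries at the filter's level and passed through the gWT libraries alone, so they could only be lower in gKO. One member was lower (quasi-likelihood test of edgeR, p adjusted by Benjamini-Hochberg over 13403 genes, under 0.05), where 0.231% of all tested genes were lower. Higher calls numbered 0 among the members, where edgeR called 0.395% of all tested genes higher. They were also 0 by unadjusted p under 0.05 (5.16% of all genes) and 0 in DESeq2 (1.2%). Without gKO replicate 3, 5 members were lower (Fzd1, Dkk2, Lef1, Fzd6 and Wnt16), beside 3.82% of all genes tested in that fit, and 0 were higher, beside 3.99%. With each library's trend with transcript length removed, a setting added after the data were examined, 4 were lower (Fzd1, Dkk2, Lef1 and Fzd6), beside 0.992%, and 0 higher, beside 1.14%. At an unadjusted p under 0.05, 11 members were lower, beside 5.74% of all tested genes. The gKO values lay wholly below the gWT values in 14 tested members, beside 11.3% of all tested genes. In 0 members did they lie wholly above, beside 10% of all tested genes. With the members that were not tested, 16 of the 45 lay wholly below, a count for which no share over all rows was computed. A negative fold change was found for 23 of the 28, beside 49.1% of all tested genes. The median log2 fold change was -0.85, beside 0.01, and without gKO replicate 3 it was -0.69, beside -0.02. Since members high in gWT alone pass the filter, the counts among tested members do not describe all 45.

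**Figure D1:**
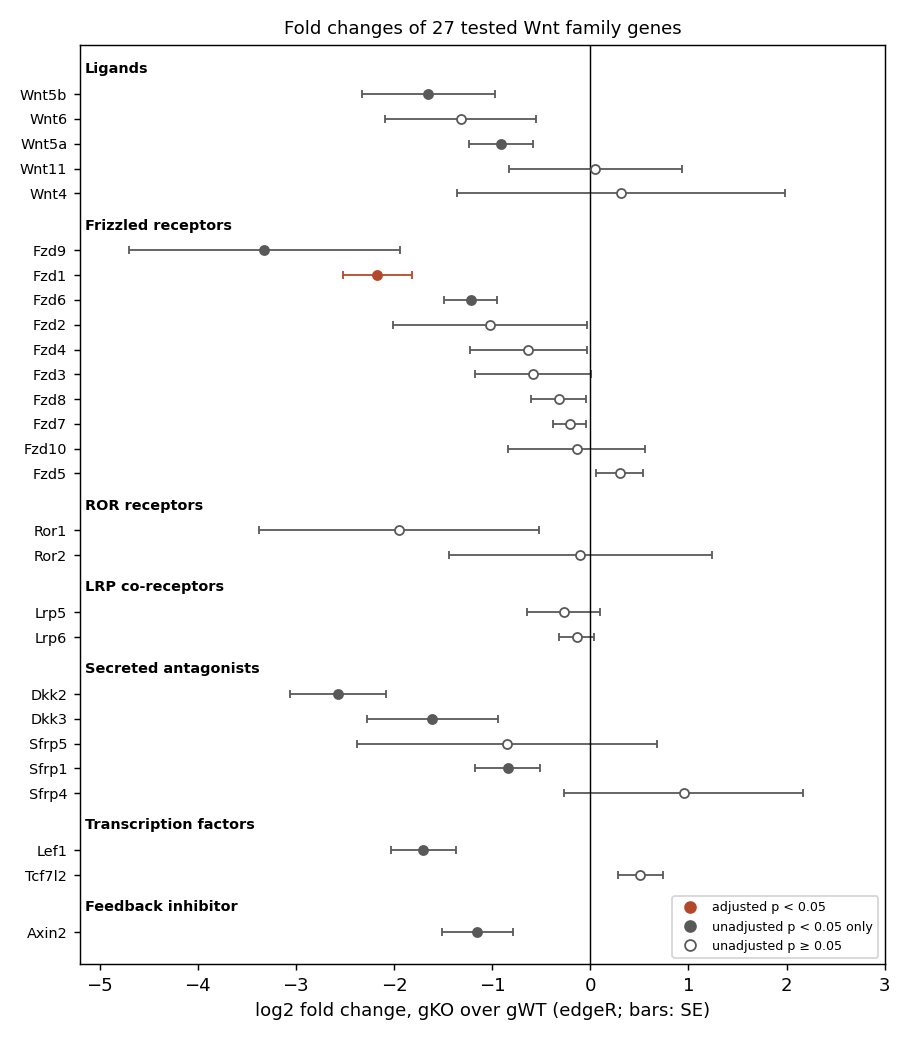
Log2 fold change of gKO over gWT (x axis, edgeR) for 27 tested members grouped by role, with bars giving SE. Wnt16 is left out because it had 0 counts in all gKO libraries. The filled coloured point is Fzd1, the only member called in the fit of all 6 libraries, and 5 members, Tcf7l2 and Fzd5 among them, lie right of 0.

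Mir137 encodes a microRNA enriched in brain, which represses transcripts that pair with its seed. The mature sequence, from RefSeq (GRCm38.p6, chromosome 3, 118433901 to 118433923, plus strand), is shown because knockout of its gene defines the gKO group, with the seed (bases 2 to 8) in capitals.
miR-137-3p: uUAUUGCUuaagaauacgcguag
The 7 bases AGCAATA, complementary to this seed, occur in the 3′ UTR of 8 of the 45 members (17.8%) and of 1931 of 19456 genes of the table with an annotated 3′ UTR (9.92%). The 8 were Fzd3, which has 2 sites, Fzd5, Fzd8, Lrp6, Wif1, Wnt2, Wnt7a and Wnt16. The windows of 4 of them, with the first site of Fzd3, are shown with the match in capitals to place it in its transcript.
Fzd3 (chr14:65199748-65199776, minus strand): actttgattttAGCAATAtggttttattc
Fzd5 (chr1:64730932-64730960, minus strand): aactcagagccAGCAATAttttatttgta
Lrp6 (chr6:134448812-134448840, minus strand): gatgggagggtAGCAATActgggtatcgg
Wnt16 (chr6:22292740-22292768, plus strand): gcaaattagatAGCAATAtgagagtctat
Of these 8, 5 were tested and 0 were called by edgeR with all 6 libraries. Fzd3, Fzd8, Lrp6 and Wnt16 had a negative fold change, Wnt16 with an unadjusted p under 0.05 and a DESeq2 call, and Fzd5 had a positive one. Fzd1, Dkk2, Lef1 and Fzd6 hold no AGCAATA in the annotated 3′ UTR used here. A match is a description of the sequence and not evidence of binding.

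Among the ligands, 6 of 19 were tested and 0 were called by edgeR with all 6 libraries (by unadjusted p under 0.05, 3 were lower and 0 higher; in DESeq2, 2 were lower). Wnt5a, the ligand of the beta-catenin-independent branch, had the highest CPM. Per kilobase it was highest in gKO (0.603 CPM per kilobase, against 0.544 for Wnt5b) but below Wnt5b in gWT (1.13 against 1.72). Wnt5a stood at 4.70, 4.46 and 3.53 CPM (counts scaled to library size by TMM) in gKO replicates 1, 2 and 3, against 10.1, 8.00 and 5.68 CPM in the gWT replicates. All gKO values lay below all gWT values, but the log2 fold change was -0.91 (SE 0.33), with an edgeR adjusted p of 0.361. Wnt5b, its close paralog, had 2.0, 1.44 and 0.424 CPM in gKO and 6.13, 4.00 and 2.11 CPM in gWT. The highest gKO value was close to the lowest gWT value, and the log2 fold change was -1.65 (SE 0.68, edgeR adjusted p = 0.432). Wnt6 had 0.286, 1.23 and 0.919 CPM in gKO and 1.59, 2.06 and 2.46 CPM in gWT, again without overlap (edgeR log2 fold change -1.32 with SE 0.77, adjusted p = 0.598). Wnt5a shares exonic bases with the antisense gene Gm2670. Whether counting used strand is not stated, so reads of such pairs cannot be told apart.

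Wnt16 (chromosome 6, 22288227 to 22298522), a ligand known from bone and synovial joints, had 0 counts in each gKO library and 39, 44 and 13 counts in the gWT libraries. With a floor of 3 counts per library it was at least 9.45-fold lower in gKO. It was not called with all 6 libraries (edgeR adjusted p = 0.138) and was called without gKO replicate 3 (0.0246). Wnt9a (chromosome 11, 59306928 to 59333552), a ligand of skeletal and vascular development, had 0 counts in each gKO library and 14, 10 and 37 in gWT, at least 6.04-fold lower by the same floor. It did not pass the filter. Wnt2b, a ligand of eye and gut development, had counts of 0, 0 and 1 in gKO against 14, 8 and 11 in gWT. The gWT to gKO ratio was 29.6 (exact 95% bounds 4.95 and 1200, for counting error alone). Wnt2b did not pass the filter either, and DESeq2 gave it an adjusted p of 0.185. The ratio was computed because the gKO count was low, so its bounds are not a test of a difference. These 3 ligands had at most 1 count in a gKO library and at least 8 in a gWT library.

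Other ligands were scattered among single libraries. Wnt4 had counts of 0, 37 and 0 in gKO against 17, 15 and 3 in gWT, so that 1 gKO library held all of its gKO signal. Wnt7b, which with Wnt7a drives vessel growth into the brain, had counts of 0, 0 and 36 in gKO against 9, 16 and 0 in gWT. Wnt7a had counts of 5, 0 and 9 in gKO against 26, 0 and 1 in gWT. Wnt3 went the other way, with 14, 7 and 0 counts in gKO against 0, 1 and 0 in gWT, but it failed the filter. Wnt11 had 8 to 17 counts in gKO and 7 to 19 in gWT, a log2 fold change of 0.05 (SE 0.88). Wnt8b and Wnt10a had at most 1 and 6 counts in any library, both in gWT. In these 7 ligands the groups overlapped.

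All 10 Frizzled genes passed the filter. Compared per kilobase of the longest annotated coding transcript, Fzd7 had the highest mean level, at 13.1 CPM per kilobase in gKO and 15.2 in gWT, followed in gWT by Fzd6 (2.11 in gKO and 4.91 in gWT) and Fzd4 (2.69 in gKO and 4.18 in gWT). Fzd7 had 62.7, 69.6 and 46.3 CPM in gKO and 68.6, 66.6 and 70.9 CPM in gWT. The groups overlapped, and the log2 fold change was -0.21 (SE 0.17, edgeR adjusted p = 0.740). Fzd9 had the lowest mean in gKO, at 0.0583 CPM per kilobase against 0.646 in gWT, and Fzd3 the lowest in gWT, at 0.201 in gKO against 0.304 in gWT.

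Fzd1 (chromosome 5, 4753839 to 4758035), a receptor that couples to beta-catenin, had counts of 35, 27 and 34 in gKO against 210, 123 and 151 in gWT. As levels these were 2.0, 1.85 and 2.40 CPM in gKO and 12.4, 7.03 and 8.84 CPM in gWT, so that the lowest gWT value was well above the highest gKO value. Fzd1 averaged 2.09 ± 0.285 CPM in gKO, against 9.42 ± 2.72 CPM in gWT (SD over 3 libraries each), a log2 fold change of -2.17 (SE 0.35, edgeR adjusted p = 0.0385). In the authors' deposited table it had a log2 fold change of -2.18 and an adjusted p of 2.35e-05. The call was kept without gKO replicate 3 (edgeR adjusted p = 0.00248) and lost without any other single library, where the adjusted p lay between 0.122 and 0.320 and the log2 fold change between -2.35 and -1.93. In bulk RNA, fewer cells that express a gene and less RNA per cell cannot be told apart.

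Fzd6, a receptor of planar cell polarity, had 11.6, 8.64 and 7.14 CPM in gKO and 23.5, 16 and 24.1 CPM in gWT. The groups did not overlap, and the log2 fold change was -1.22 (SE 0.27), with an edgeR adjusted p of 0.128 with all 6 libraries and 0.0152 without gKO replicate 3. It shares exonic bases with the antisense gene Gm26704. Fzd9 had counts of 7, 0 and 0 in gKO against 29, 11 and 36 in gWT (edgeR log2 fold change -3.32 with SE 1.38, adjusted p = 0.439). Fzd8 lay between 5.56 and 5.90 CPM in gKO and between 6.00 and 8.32 CPM in gWT, a separation that did not pass the test (log2 fold change -0.32, SE 0.28). Fzd2 had counts of 63, 0 and 57 in gKO against 101, 73 and 93 in gWT, the count of 0 being in gKO replicate 2. Fzd5 was the receptor with a positive fold change, at 10.3 to 15.9 CPM in gKO and 10.1 to 11.3 CPM in gWT (log2 fold change 0.30, SE 0.24). Fzd3 and Fzd10 overlapped between groups, with log2 fold changes of -0.58 (SE 0.59) and -0.14 (SE 0.70).

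Fzd4, the endothelial receptor of Norrin, had 20.1 and 30.8 CPM in gKO replicates 1 and 2 and 3.39 CPM in replicate 3, against 24.6, 26.2 and 33.3 CPM in gWT. Its log2 fold change of -0.63 (SE 0.60) was -0.15 without gKO replicate 3. The ROR receptors were near the detection limit. Ror1 had counts of 18, 0 and 0 in gKO against 14, 35 and 23 in gWT, and Ror2 had 14, 16 and 0 in gKO and 24, 8 and 3 in gWT. Both overlapped between groups, with edgeR adjusted p-values of 0.693 and 0.989. The log2 fold change of Ror2 was -0.10 (SE 1.34) with all 6 libraries and 0.46 (SE 1.22) without gKO replicate 3.

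Lrp5 (chromosome 19, 3584828 to 3686564) was the most abundant member, at a mean of 48.9 CPM per kilobase in gKO and 58.8 in gWT. It had 337, 314 and 105 CPM in gKO replicates 1, 2 and 3 and 314, 291 and 306 CPM in the gWT replicates. Only gKO replicate 3 was low, and the log2 fold change of -0.27 (SE 0.37, edgeR adjusted p = 0.849) was 0.09 (SE 0.07, adjusted p = 0.454) without that library. Lrp6, the second co-receptor, had 116, 153 and 93.9 CPM in gKO and 141, 124 and 135 CPM in gWT. Its groups overlapped as well, with a log2 fold change of -0.14 (SE 0.18, edgeR adjusted p = 0.843) and of 0.00 (SE 0.11) without gKO replicate 3. Between them Lrp5 and Lrp6 made up 199 to 468 CPM of the 348 to 660 CPM summed over all members in gKO, and 414 to 455 of 639 to 722 CPM in gWT.

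**Figure D2:**
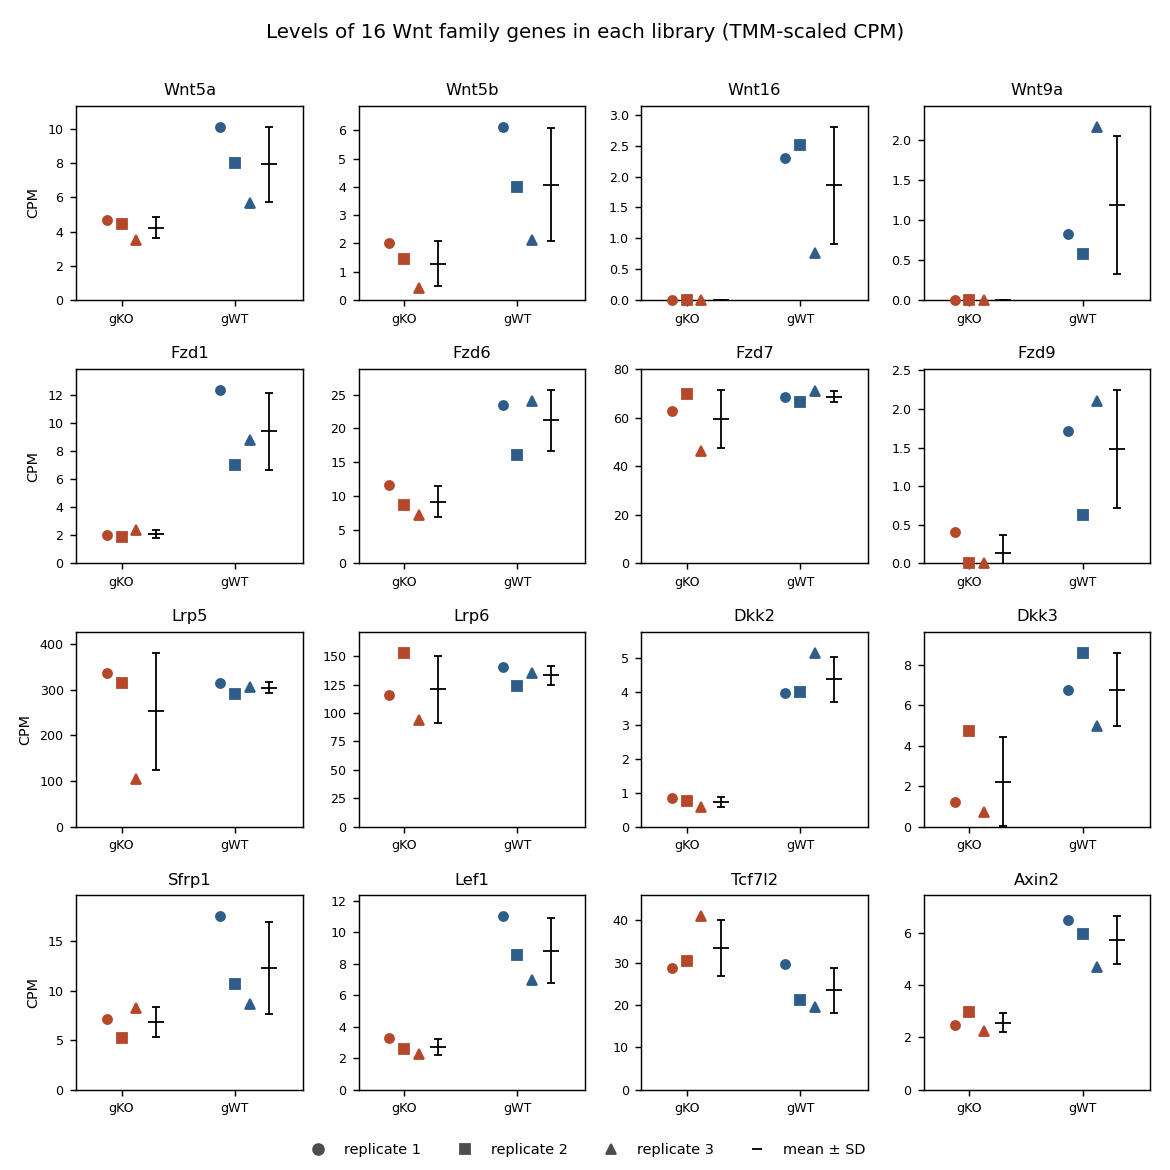
TMM-scaled CPM of 16 members (y axes, each from 0) in the 3 gKO libraries (left) and 3 gWT libraries (right), 1 point a library, with the mean and SD in black; lower error bars end at 0. Fzd1, Dkk2, Lef1 and Axin2 separate the groups, while Lrp5 and Fzd7 are lowest in gKO replicate 3 alone.

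Of the 9 antagonists, 5 were tested and edgeR called 0 of them with all 6 libraries (by unadjusted p under 0.05, 3 were lower and 0 higher; in DESeq2, Dkk2 was lower). Dkk2 (chromosome 3, 132085292 to 132180304), a modulator of LRP6 expressed in mesenchyme and eye, had counts of 15, 11 and 8 in gKO against 67, 70 and 88 in gWT. Its level was 0.726 ± 0.149 CPM in gKO, against 4.37 ± 0.682 CPM in gWT (SD over 3 libraries each), and the lowest gWT library stood far above the highest gKO library. The log2 fold change was -2.57 (SE 0.49), with an edgeR adjusted p of 0.0811 with all 6 libraries and 0.0188 without gKO replicate 3. The authors' deposited table lists it as lower, with a log2 fold change of -2.58 and an adjusted p of 0.000292. Dkk3, a divergent family member, had 1.20, 4.73 and 0.707 CPM in gKO and 6.72, 8.57 and 4.98 CPM in gWT. Its gKO replicate 2 lay just under the lowest gWT library, and the log2 fold change was -1.61 (SE 0.67, edgeR adjusted p = 0.437).

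Sfrp1, which binds Wnts through a Frizzled-like domain, was the most abundant antagonist in CPM. It had 7.10, 5.21 and 8.20 CPM in gKO and 17.5, 10.7 and 8.61 CPM in gWT, a log2 fold change of -0.84 (SE 0.33, edgeR adjusted p = 0.410). The groups were separated by a narrow margin between gKO replicate 3 and gWT replicate 3. Sfrp4 had counts of 16, 15 and 9 in gKO against 8, 15 and 0 in gWT, and Sfrp5 had 23, 0 and 0 in gKO and 23, 12 and 7 in gWT. Sfrp2 and Wif1, which failed the filter, had 25 and 6 counts in gKO replicate 3, where they had 0 in the other gKO libraries. In gWT, Sfrp2 had 4, 0 and 0 counts and Wif1 had 0 in each library. The groups overlapped for these 4.

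Lef1 (chromosome 3, 131110471 to 131224356), a nuclear partner of beta-catenin and itself a known target, had counts of 57, 38 and 32 in gKO against 186, 149 and 119 in gWT. The corresponding levels were 3.26, 2.61 and 2.26 CPM in gKO and 11, 8.52 and 6.97 CPM in gWT, without overlap. Its log2 fold change was -1.70 (SE 0.33), with an edgeR adjusted p of 0.0864 with all 6 libraries and 0.0154 without gKO replicate 3. Tcf7l2, the more abundant nuclear partner, had 28.8, 30.4 and 40.9 CPM in gKO and 29.6, 21.1 and 19.6 CPM in gWT. The groups overlapped, and its log2 fold change was positive at 0.51 (SE 0.23, edgeR adjusted p = 0.468). Axin2, used as a readout of beta-catenin signalling, had 2.46, 2.95 and 2.26 CPM in gKO and 6.48, 5.94 and 4.69 CPM in gWT. The gWT values all lay above the gKO values, at a log2 fold change of -1.15 (SE 0.36). The change did not pass the test with all 6 libraries (edgeR adjusted p = 0.275), nor without gKO replicate 3 (0.124). Lef1 shares exonic bases with the antisense gene Gm43352, and Axin2 with Gm11670.

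Together, the 11 members with an unadjusted p under 0.05 averaged 1.48 to 21.2 CPM in gWT, Fzd9 being the lowest and Fzd6 the highest. In the authors' deposited table of genes lower in gKO, 6 of 201 genes were members: Fzd1, Dkk2, Wnt16, Lef1, Fzd6 and Wnt9a. The deposited list of 75 genes higher in gKO held 0 members. The lists cover 0.823% and 0.307% of all rows of the count table. DESeq2 run on the same counts called these same 6 members lower, beside 1.57% of the genes it gave an adjusted p.

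**Figure D3:**
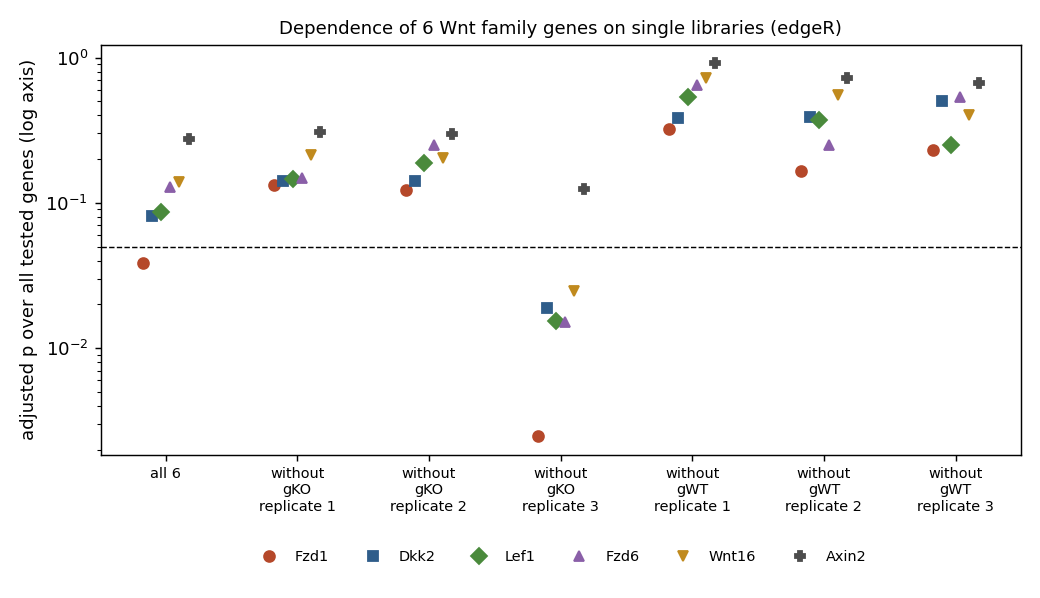
EdgeR adjusted p over all tested genes (log axis) of 6 members with all libraries and with each library left out in turn (x axis); the dashed line is 0.05. With all libraries Fzd1 alone is under the line. Without gKO replicate 3, Fzd1, Dkk2, Lef1, Fzd6 and Wnt16 are under it, and without any other library all 6 lie above.

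Promoters were searched for the TCF/LEF motifs CTTTGAT and CTTTGTT on both strands, from 250 bases before to 50 after the start (RefSeq, GRCm38.p6). At least 1 match was found for 6 of the 31 members with a promoter in the RefSeq table (19.4%) and for 10.6% of all genes with one. These 6 were Fzd7, Wnt5b, Wnt11, Wnt3, Dkk1 and Tcf7l2. The windows of Fzd1, the called member, of Wnt5b, lower in every gKO library, and of Fzd7, whose groups overlapped, are shown with matches in capitals.
Fzd1 (chr5:4758167-4758466, minus strand): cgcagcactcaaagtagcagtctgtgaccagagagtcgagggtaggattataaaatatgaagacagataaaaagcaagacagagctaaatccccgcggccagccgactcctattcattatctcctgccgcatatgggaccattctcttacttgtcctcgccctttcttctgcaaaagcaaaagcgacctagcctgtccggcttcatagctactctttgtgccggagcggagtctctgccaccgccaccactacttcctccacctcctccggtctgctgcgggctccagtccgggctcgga
Wnt5b (chr6:119449337-119449636, minus strand): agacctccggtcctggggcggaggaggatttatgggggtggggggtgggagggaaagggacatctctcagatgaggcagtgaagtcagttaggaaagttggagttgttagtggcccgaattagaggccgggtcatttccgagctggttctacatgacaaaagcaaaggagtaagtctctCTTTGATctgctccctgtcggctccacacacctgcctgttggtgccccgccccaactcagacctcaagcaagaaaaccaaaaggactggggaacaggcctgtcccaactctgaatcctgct
Fzd7 (chr1:59481897-59482196, plus strand): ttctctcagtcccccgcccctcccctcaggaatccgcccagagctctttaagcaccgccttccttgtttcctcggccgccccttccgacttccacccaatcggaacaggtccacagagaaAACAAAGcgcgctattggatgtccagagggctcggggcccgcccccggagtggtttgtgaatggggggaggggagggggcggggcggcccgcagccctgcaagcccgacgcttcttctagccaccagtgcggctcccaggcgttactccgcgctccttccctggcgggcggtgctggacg
The Wnt5b window belongs to 1 of 3 annotated starts and the other two hold no match. The windows of Fzd1, Dkk2, Lef1 and Axin2 hold none of these letters, which says nothing about sites elsewhere.

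In the rest of the pathway, 120 genes of the lists were in the table and 106 were tested, of which 2 fell and 0 rose by edgeR, where 0.231% of all tested genes were lower and 0.395% higher. By unadjusted p under 0.05, 15 were lower and 2 higher, beside 5.74% and 5.16% of all tested genes. In DESeq2, 7 were lower and 0 higher, beside 1.57% and 1.2%. Their median log2 fold change was -0.11, and 0.02 without gKO replicate 3. Both falls were in the list of widely reported beta-catenin targets, where 2 of 15 tested members fell and the median was -0.86. By unadjusted p under 0.05, 8 of these targets were lower and 1, Cd44, was higher (edgeR log2 fold change 0.63 with SE 0.19, adjusted p = 0.273). Fold changes were negative for 12 targets and positive for 3. Ccnd1 and Znrf3 stood near 0, each at -0.04, and Myc and Sp5 stood at 0.23 and 0.13. The endothelial transcription factor gene Sox17 had 10.2, 15.0 and 12.5 CPM in gKO and 30.7, 30.2 and 30.5 CPM in gWT (edgeR log2 fold change -1.28 with SE 0.20, adjusted p = 0.0360). The tight-junction gene Cldn5 had 116, 125 and 141 CPM in gKO and 290, 253 and 235 CPM in gWT (edgeR log2 fold change -1.03 with SE 0.14, adjusted p = 0.0246). For both the gWT libraries lay clearly above the gKO libraries. The list also holds Slc2a1, which with Cldn5 belongs to the endothelial marker list as well. Slc2a1 had an edgeR adjusted p of 0.116 with all 6 libraries and 0.00081 without gKO replicate 3. Without gKO replicate 3, 9 pathway genes were lower and 8 higher, beside 3.82% and 3.99% of all genes, and 5 of the targets were lower.

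The other lists had 0 called members in edgeR with all 6 libraries. Among 16 tested antagonists and surface partners, 14 were negative (median -0.47; 5 lower at an unadjusted p under 0.05), the smallest p being those of the glypican gene Gpc6 (edgeR log2 fold change -2.04 with SE 0.39, adjusted p = 0.0790) and of Apcdd1, a membrane inhibitor of Wnt signalling (-0.97, SE 0.25, adjusted p = 0.184). Secretion and Wnt-modifying enzymes had a median of -0.62 over 4 tested genes (1 lower at an unadjusted p under 0.05). The Wnt-cleaving protease gene Trabd2b was the lowest (-1.28, SE 0.32, edgeR adjusted p = 0.175), followed in p by Porcn, the Wnt acyltransferase (-0.33, SE 0.34). R-spondins and their receptors had a median of -0.18 over 4 tested genes (0 at an unadjusted p under 0.05), and of 0.03 without gKO replicate 3. Rspo3 stood at -0.51 (SE 0.67) and Lgr4 at 0.15 (SE 0.25). Gpc6, Apcdd1 and Trabd2b were called lower without gKO replicate 3 (edgeR adjusted p = 0.00315, 0.00158 and 0.0417), among 3 antagonists and surface partners and 1 secretion enzyme.

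The cytoplasmic, nuclear, and polarity and calcium lists had medians near 0. The 27 tested genes of cytoplasmic transduction had a median of -0.02 (3 lower and 1 higher at an unadjusted p under 0.05), with the casein kinase gene Csnk1g3 at 0.58 (SE 0.16, edgeR adjusted p = 0.218) and the feedback inhibitor Nkd1 at -0.86 (SE 0.29, adjusted p = 0.319). The 17 nuclear factors had a median of 0.04 (0 at an unadjusted p under 0.05), with Tle1 at -0.35 (SE 0.18) and Tcf7 at -0.95 (SE 0.52). The 28 genes of planar cell polarity and calcium signalling had a median of 0.01 (0 at an unadjusted p under 0.05), with Rac1 at 0.32 (SE 0.14) and Camk2d at 0.29 (SE 0.13). The summed level of this last list was 3490 to 3700 CPM in gKO and 3120 to 3200 CPM in gWT, while the sums of the cytoplasmic and nuclear lists overlapped. Most of the polarity and calcium sum came from the GTPase genes Rhoa, Rac1 and Cdc42. These averaged 725, 805 and 774 CPM in gKO and 611, 646 and 630 CPM in gWT. Each was highest in gKO replicate 3, at 880, 949 and 920 CPM, and the sum without them was not computed. DESeq2 called 1 lower gene among the secretion enzymes, 2 among the antagonists and surface partners, and 0 in the other 4 lists outside the targets. Without gKO replicate 3, edgeR called 1 lower and 1 higher among the cytoplasmic genes, 3 higher among the nuclear factors and 4 higher among the polarity and calcium genes, Camk2d among them (adjusted p = 0.0453).

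**Figure D4:**
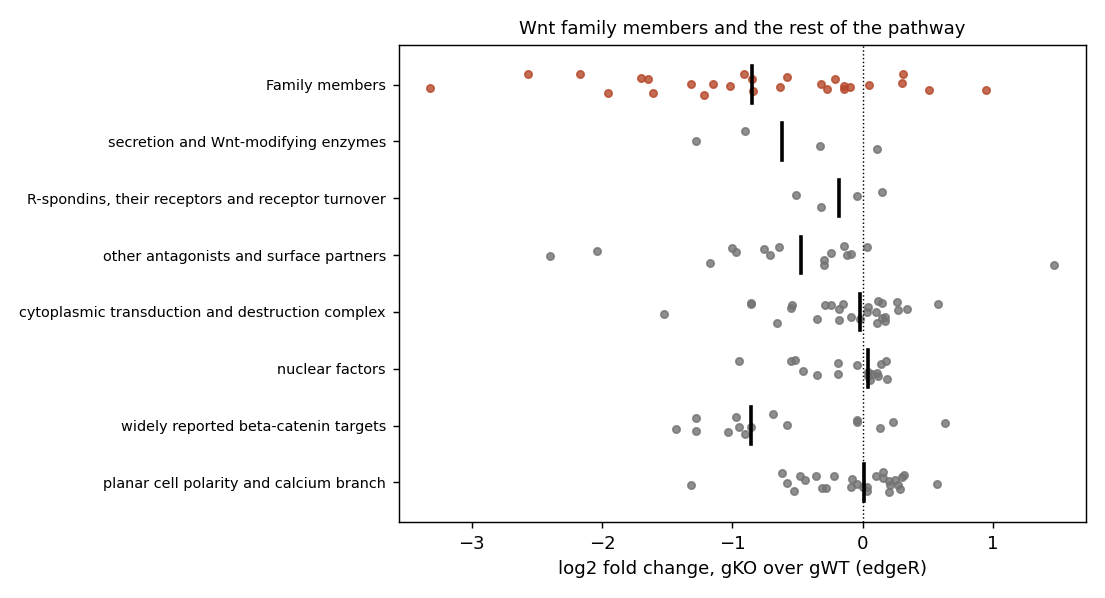
Log2 fold change of gKO over gWT (x axis, edgeR) of each tested gene of the Wnt family (coloured, Wnt16 not drawn) and of 7 lists of other pathway genes (grey, overlapping lists share genes); black bars are medians over all tested genes of a list. The medians of the family (-0.85) and of the beta-catenin targets (-0.86) lie left of 0, while cytoplasmic, nuclear and polarity genes centre near 0.

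Marker lists showed what other cells the libraries could hold. The 12 microglial markers summed to 41400 to 44000 CPM in gKO and 40900 to 44100 CPM in gWT, with 0 of 12 called by edgeR or DESeq2 with all 6 libraries and 2 lower by unadjusted p under 0.05. Without gKO replicate 3, edgeR called 3 of the 12 lower (Fcrls, P2ry13 and Olfml3, log2 fold changes -0.37, -0.28 and -0.58) and 1 higher (Siglech, 0.23). Fibroblast and meningeal markers summed to 344 to 509 CPM in gKO and 763 to 982 CPM in gWT, and 7 of 16 fell. These 7 were all collagen or Foxc genes (Col1a1, Col1a2, Col3a1, Col6a1, Col6a2, Foxc1 and Foxc2). The list's median log2 fold change was -1.27, with 11 lower by unadjusted p under 0.05, 8 in DESeq2 and 9 without gKO replicate 3. The gKO values lay wholly below the gWT values in 10 of the 16, beside 11.3% of all tested genes. Mural and smooth muscle markers summed to 119 to 181 CPM in gKO and 294 to 414 CPM in gWT, and 1 of 14, the actin gene Acta2, fell (median -1.19), with 10 lower by unadjusted p under 0.05, 5 in DESeq2 and 7 without gKO replicate 3. Endothelial markers summed to 647 to 773 CPM in gKO and 1170 to 1470 CPM in gWT, and 1 of 14, Cldn5, fell (median -0.89), with 11 lower by unadjusted p under 0.05, 7 in DESeq2 and 12 without gKO replicate 3. Astrocyte markers summed to 304 to 345 CPM in gKO and 423 to 494 CPM in gWT, with 0 of 14 called by edgeR (median -0.64; by unadjusted p under 0.05, 7 were lower; in DESeq2, 1 was lower; without gKO replicate 3, 2 were lower). In these 4 lists the gKO sums lay wholly below the gWT sums, also without the most abundant gene of each list, and no marker was at 0 in all libraries. The median log2 fold changes of the tested members (-0.85) and of the beta-catenin targets (-0.86) lie within the range of the medians of these 4 lists, and their part in the results for Fzd1, Dkk2, Lef1, Fzd6, Wnt16 and Axin2 was not tested.

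Other lists differed in direction. Choroid plexus and ependymal markers overlapped between groups, at 999 to 2920 CPM in gKO and 1760 to 2960 CPM in gWT (median -0.83, 0 of 10 tested called by edgeR, 3 lower at an unadjusted p under 0.05, 1 lower by DESeq2, 2 lower without gKO replicate 3). Without Ttr, the most abundant gene of that list, the sums were 45.2 to 75.4 CPM in gKO and 86.7 to 166 CPM in gWT, without overlap. Neutrophil markers summed to 930 to 1360 CPM in gKO and 591 to 705 CPM in gWT, and 2 of 13, Ltf and Mmp9, rose (median 1.11), with 7 higher in DESeq2 and 7 without gKO replicate 3. Monocyte markers summed to 366 to 514 CPM in gKO and 543 to 765 CPM in gWT, but Fn1 alone set that order. Without Fn1 the sums were 148 to 225 CPM in gKO and 87.3 to 97.2 CPM in gWT, and 2 of 10 monocyte markers, Chil3 and Hp, rose (median 0.86). Medians were -0.28 for neurons, -0.31 for oligodendrocyte precursors and 0.18 for border-associated macrophages, with 0 called by edgeR, 0, 1 and 1 lower at an unadjusted p under 0.05, and 0, 1 and 0 lower by DESeq2. In these lists edgeR called 0, 1 and 1 lower and 0, 0 and 1 higher without gKO replicate 3. The summed levels of these 3 lists were 28.3 to 39.6, 23.3 to 43.3 and 2520 to 3680 CPM in gKO and 32.1 to 41.1, 45.0 to 56.6 and 3300 to 3400 CPM in gWT, in that order, and those of the precursors did not overlap. Without the most abundant gene of each list, the precursor sums overlapped (17.7 to 36.4 CPM in gKO and 33.0 to 44.5 CPM in gWT) and the border-associated macrophage sums were higher in gKO (1640 to 1720 CPM in gKO and 1500 to 1570 CPM in gWT).

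**Figure D5:**
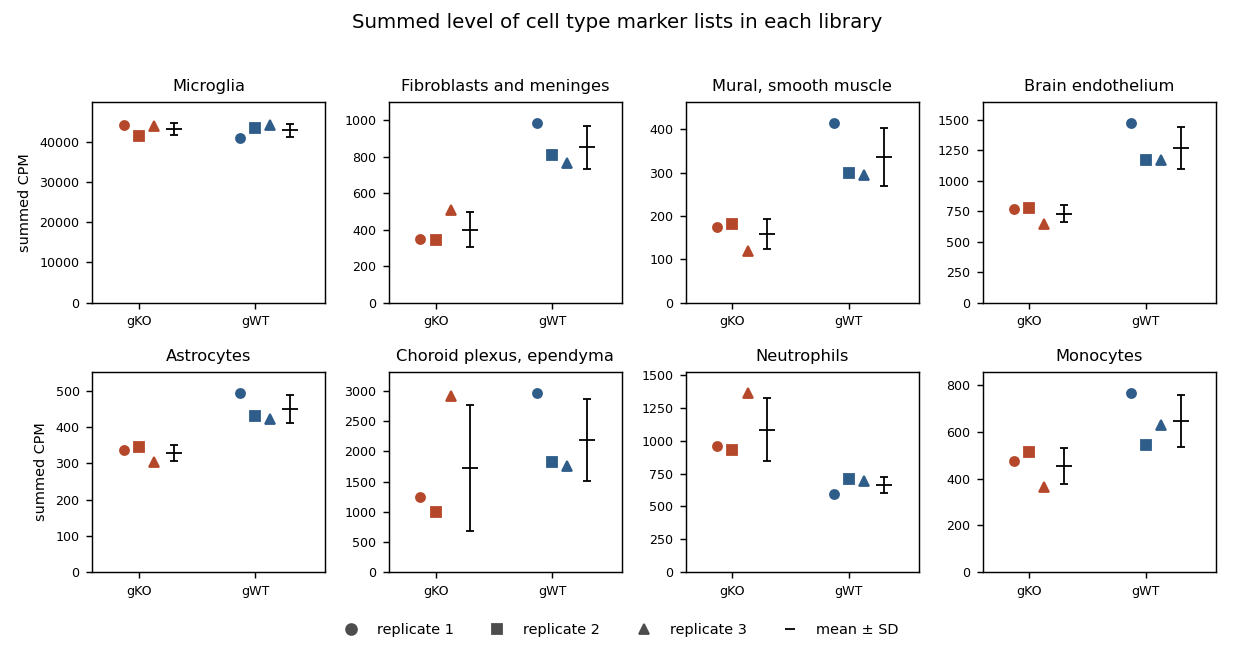
Summed TMM-scaled CPM of 8 marker lists (y axes, each from 0) in the 3 gKO libraries (left) and 3 gWT libraries (right), 1 point a library, with the mean and SD in black. Microglial markers overlap between the groups, while fibroblast, mural, endothelial and astrocyte markers are lower in each gKO library than in any gWT library.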

How the data were processed

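The authors deposited expected counts for 6 libraries in 1 table of gene symbols, not normalized, and 2 lists of genes changed in gKO. Per the file headers, these lists give the log2 fold change, scores (its standard error and test statistic), p-values before and after adjustment, and the mean normalized signal of each gene. RSEM, STAR 2.7.9a and DESeq2, with the builds GRCm38 and mm10, are listed per the submitters' processing notes, without roles. The annotation and the strand setting were not given in the sources used here.

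Expected counts were rounded and tested on the whole table with edgeR 4.0.16 in R 4.3.3 (TMM scaling, default filter with a minimum count of 10, quasi-likelihood test with robust dispersion, genotype only). Benjamini-Hochberg adjusted p under 0.05 called a gene. The SE equals the size of the log2 fold change over the root of the F statistic. Levels are TMM-scaled CPM. The test was checked on simulated counts. Identities, lengths and 3′ UTRs came from GENCODE M21 (GRCm38), matching all 45 members; 3′ UTRs are those of the longest coding transcript. Gene lists are described by counts and medians, without a set test. The 3 names Tiki2, Tle5 and Troy, and the marker Ly6g, had no row under that symbol. Members and lists were chosen with earlier results of these data known. Members are given by library when their unadjusted p was under 0.05, when they led their role or were among the 3 highest per kilobase, when the authors listed them, and for Axin2; the other members named by value were added after their values were seen. Of a pathway list, the called genes are named or, with none, the 2 with the smallest p; of a marker list, the called genes. Sums without the most abundant gene, and the markers named with them or without gKO replicate 3, were added after values were seen. The result of 1 marker list is not reported here. As alternatives, DESeq2 1.42.0, limma-voom (limma 3.58.1), RLE or upper-quartile scaling, no filter, at least 1 CPM in 3 libraries, the replicate number as a block and leaving out each library were run. A fit with the length trend of each library taken out was chosen after seeing the data. Replicates differed by more than sampling noise (chi-square per degree of freedom of at least 6.49), and intervals and floors cover counting error only.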

Additional observations from a re-analysis of the deposited data

How the results depend on the processing

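The count of members lower in gKO was 1 with all libraries, 6 in DESeq2 and 4 with the length trend removed. It was 0 in limma-voom, 0 with the replicate block and 0 to 5 over the fits without 1 library. At an unadjusted p under 0.05, limma-voom had 11 members lower and 1 higher, and the block fit 11 lower and 0 higher. Of 13403 tested genes, 1621 in limma-voom and 1203 with the block had such a p, lower and higher together. The length trend fit called Fzd1, Dkk2, Lef1 and Fzd6. Other pathway genes lower in gKO, 2 with all libraries, numbered 7 in DESeq2, 6 with the length trend removed, 0 with the replicate block and 0 to 9 without 1 library; those higher numbered 0 to 8 without 1 library. Over all genes, 53 higher and 31 lower became 179 and 235 in DESeq2, and 153 and 133 with the length trend removed. They became 52 and 33 in limma-voom and 11 and 7 with the replicate block, while 47 were lower without a filter. Without 1 library they were 0 to 551 higher and 0 to 528 lower. In these counts the highest value was that without gKO replicate 3. Lrp5 and Lrp6 changed sign without gKO replicate 3: over the fits without 1 library their log2 fold changes were -0.54 to 0.09 and -0.35 to 0.00. Fzd1 was called with RLE or upper-quartile scaling and under either other filter, and was not called in limma-voom (log2 fold change -2.13, adjusted p = 0.117) or with the replicate block (-2.14, adjusted p = 0.0986). Same-numbered libraries showed little common deviation from their group means (correlations of 0.05, -0.05 and 0.02). With 3 libraries a group and gKO replicate 3 far from the rest, this cannot show whether they shared a preparation. Why the settings differ was not tested. With 3 libraries a group, members under about 10 counts a library could not be tested, and a miss does not show equal levels.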
